A study of Homo sapiens with 3 samples.

Results

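The 8 genes SST, GCG, UCN3, CHGA, CHGB, CPE, GAL and NPW, peptide hormones and granins of the gut, were followed through a single-cell RNA-seq study of a gut epithelial co-culture. They were chosen by symbol, and each matched 1 of the 33538 genes in every count matrix. Caco-2 and HT29, both established lines from human colorectal carcinomas, were grown together in the apical chamber of Transwell inserts, with Caco-2 seeded in excess. All cultures were harvested on day 23, and the cells were frozen, thawed and depleted of dead cells before 10x 3′ libraries were made. The control group was 2 untreated cultures (control 1 and control 2). The LPS group was 1 culture that received 1 ng/ml of Escherichia coli O111:B4 lipopolysaccharide (LPS) on the apical side for 24 h from day 22. Because that group held 1 library, every test against it assumed that it varied as the 2 controls did.

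SST encodes somatostatin, the peptide of D cells that restrains the release of other gut hormones. GCG encodes proglucagon, which the L cells of the intestine cleave to the glucagon-like peptides. UCN3 encodes urocortin 3, a relative of corticotropin-releasing factor. GAL and NPW encode galanin and neuropeptide W, signalling peptides best known from neurons. CHGA and CHGB encode chromogranins A and B, proteins that pack the dense-core granules in which such peptides are stored, and CPE encodes carboxypeptidase E, which trims basic residues from prohormones inside those granules. In the intestine the hormones and the granins belong to the enteroendocrine cells, a rare secretory lineage that differs in hormone from cell to cell.

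The 250 bases before the start site are shown for 3 members, since SST and CHGA, which were detected in separate cells here, both hold a full cyclic AMP response element (CRE) and CPE does not. The sequences are those of RefSeq (GRCh38.p14), and capitals mark the CRE TGACGTCA, the CRE core TGACG and the TATA motif TATAAA.
SST promoter, chr3:187670395-187670644, minus strand: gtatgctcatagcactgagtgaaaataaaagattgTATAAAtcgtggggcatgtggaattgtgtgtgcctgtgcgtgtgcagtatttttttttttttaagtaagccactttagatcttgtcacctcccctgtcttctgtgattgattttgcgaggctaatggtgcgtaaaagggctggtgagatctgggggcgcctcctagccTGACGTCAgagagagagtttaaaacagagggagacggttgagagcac
CHGA promoter, chr14:92922900-92923149, plus strand: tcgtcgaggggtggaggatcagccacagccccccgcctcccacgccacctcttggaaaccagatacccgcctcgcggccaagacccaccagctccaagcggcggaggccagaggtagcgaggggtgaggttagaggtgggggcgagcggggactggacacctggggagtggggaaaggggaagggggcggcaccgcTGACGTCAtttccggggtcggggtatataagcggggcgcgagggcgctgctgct
CPE promoter, chr4:165378758-165379007, plus strand: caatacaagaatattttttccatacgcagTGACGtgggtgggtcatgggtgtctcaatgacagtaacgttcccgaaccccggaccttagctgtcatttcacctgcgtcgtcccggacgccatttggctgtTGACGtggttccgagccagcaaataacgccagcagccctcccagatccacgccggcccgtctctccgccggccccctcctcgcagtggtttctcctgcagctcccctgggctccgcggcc
The CRE lay 47 bases before the start in SST and 54 bases before it in CHGA. CPE, whose RefSeq start lies inside the longer GENCODE gene, held the core TGACG at 221 and 120 bases before that start, and SST also held TATAAA at 215 bases. On both strands, a CRE was found in 1.65% of 35116 RefSeq promoters of this length, its core (which each CRE contains on both strands) in 21.2% and TATAAA in 10.7%. Promoters were found for 5 of the 8 members. GCG had no CRE or core and held TATAAA at 79 and 30 bases, and NPW had none of these motifs. UCN3, CHGB and GAL had no entry. These are matches of letters, not measured binding sites. In the GENCODE annotation of GRCh38 the genes lie at chr3:187668912-187670394 (SST, ENSG00000157005), chr2:162142882-162152404 (GCG, ENSG00000115263), chr10:5364966-5374692 (UCN3, ENSG00000178473), chr14:92923150-92935285 (CHGA, ENSG00000100604), chr20:5911510-5925353 (CHGB, ENSG00000089199), chr4:165361194-165498547 (CPE, ENSG00000109472), chr11:68683779-68691175 (GAL, ENSG00000069482) and chr16:2009926-2020755 (NPW, ENSG00000183971).

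After filtering, 4633 cells of control 1, 4989 of control 2 and 4850 of the LPS library were kept, with a median of 5459, 4103 and 3573.5 UMIs (unique molecules) per cell. Control 1 was the deepest and the LPS library the shallowest, so shares of cells are also given after each cell was thinned to 1500 UMIs. HT29-line cells made up 14.01%, 19.3% and 16.7% of the kept cells. Pairs of libraries shared 4 to 6 cell barcodes, none with equal UMI totals. Markers of cells that the co-culture should not hold were at low levels but not absent. The 5 leukocyte markers summed to between 2.38 and 4.11 CPM (UMIs of a gene per 1e6 UMIs of the kept cells), mostly from CD3E. CD3E was at 2.64, 2.05 and 3.28 CPM in control 1, control 2 and the LPS library, with PTPRC at 4 UMIs and TYROBP at 0. The 5 fibroblast markers summed to between 16.1 and 20.9 CPM, mostly from COL1A1 and LUM. Of the 12 enteroendocrine regulators examined, NEUROD1, FEV and LMX1A were at 0 UMIs in all 3 libraries.

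The members fell into a pair found in many cells and 6 genes found in few. Levels are in CPM, and since 3′ libraries count each molecule once, no length correction was made. NPW was at 35.6, 45.04 and 37.9 CPM in control 1, control 2 and the LPS library, and GAL was at 29.8, 41.9 and 31.5 CPM. NPW lay above GAL in each library, but their ranges overlapped. CPE was at 7.07, 7.21 and 2.55 CPM, and SST at 2.70, 8.24 and 49.8 CPM. Among the 8 genes SST was the fourth in control 1, the third in control 2 and the first in the LPS library. GCG was at 1.20, 2.99 and 3.48 CPM, UCN3 at 1.17, 0.738 and 2.35 CPM, CHGB at 0.934, 1.48 and 0.979 CPM, and CHGA at 0.734 and 1.64 CPM in the controls. CHGA had no UMI in the kept LPS cells. In control 1 the counting intervals of GCG, UCN3, CHGB and CHGA all overlapped, so their order there is not resolved. Over all deposited barcodes, SST was at 4.90, 7.23 and 42.2 CPM, and 81 of the 166 SST UMIs of control 1 came from 1 barcode that was removed as a doublet.

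**Figure D1:**
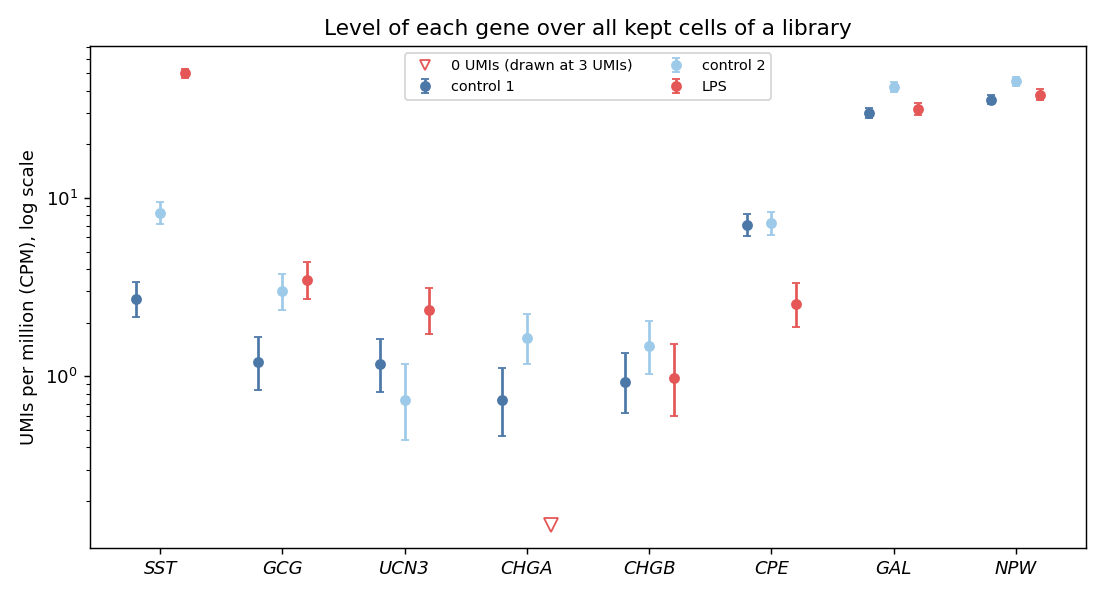
Level of each member (CPM of the summed UMIs, log axis) in control 1, control 2 and the LPS library, with exact 95% Poisson intervals. The intervals treat UMIs as independent and leave out the spread between cells, so they are too narrow for SST, whose UMIs lay mostly in few cells. SST stood at 2.70, 8.24 and 49.8 CPM, CPE at 7.07, 7.21 and 2.55 CPM, and CHGA had 22, 40 and 0 UMIs, with the 0 drawn as an open triangle at the level of 3 UMIs.

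SST came from very few cells with very many molecules. It was detected in 6, 5 and 20 kept cells of control 1, control 2 and the LPS library, which is 0.130% (exact binomial 95% interval 0.0475 to 0.282), 0.1002% (0.0325 to 0.234) and 0.412% (0.252 to 0.636). These intervals cover counting error only. After thinning, the shares were 0.0863%, 0.0601% and 0.227%. The top cell held 37, 131 and 507 SST UMIs, and the top 3 cells held 95.1%, 99.0% and 86.2% of all SST UMIs of their library. In the cell with 507 SST UMIs, somatostatin made up 23.0% of its 2209 UMIs. The next LPS cell held 297 SST UMIs among 5084. Without its top cell the LPS library was at 25.0 CPM, still above both controls.

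GCG was spread more evenly over a similar number of cells. It was detected in 9, 15 and 20 cells of control 1, control 2 and the LPS library, from 36, 73 and 71 UMIs. The shares of cells were 0.194%, 0.301% and 0.412% and, after thinning, 0.108%, 0.241% and 0.186%, so control 2 and the LPS library exchanged places once depth was equal. SST and GCG met in the same cells: 16 cells held both, which is 51.6% of the 31 SST cells and 36.4% of the 44 GCG cells. UCN3 was detected in 28, 15 and 32 cells, 75 in all, of which 10 also held SST and 15 also held GCG. In most of its cells, UCN3 was found without either hormone. However, most UCN3 cells held a single UMI of it, a level at which free RNA cannot be told from expression. Of the 14 cells with at least 2 UCN3 UMIs, 4 also held at least 2 SST UMIs and 6 held at least 2 GCG UMIs.

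**Figure D2:**
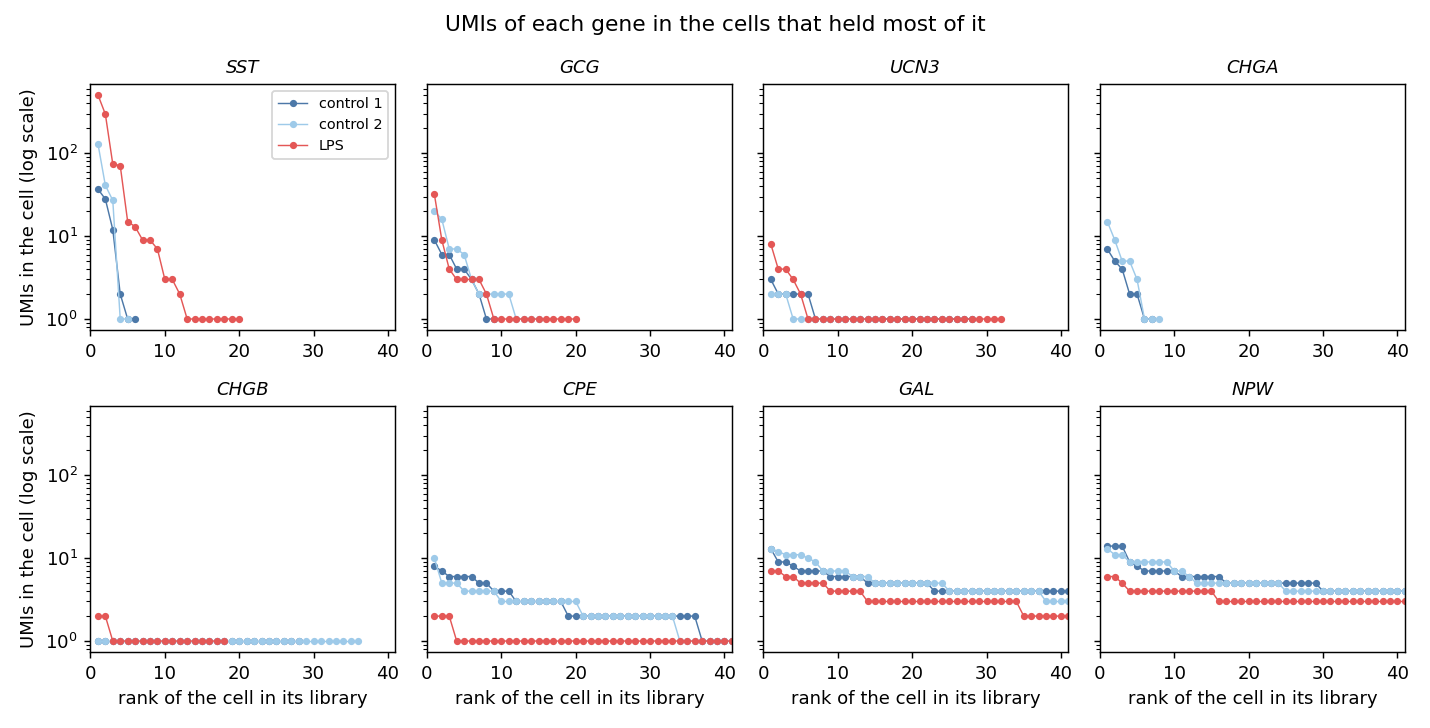
UMIs per cell (log axis) of the cells that held most of each member, ordered from the highest to the lowest within each library. The SST curves fall steeply from 37, 131 and 507 UMIs in the top cells, whereas the CHGB curves start at 1 or 2 UMIs.

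CHGA and CPE marked other cells, and CHGB was thinly spread. CHGA was detected in 7 cells of control 1 and 8 of control 2, with at most 7 and 15 UMIs in a cell, and in none of the 4850 LPS cells (0 there leaves room for a share of 0.0619%). A further 2 LPS barcodes with 1 CHGA UMI each lay below the cell minimums. CPE was detected in 130, 105 and 49 cells, or 2.81%, 2.10% and 1.01% of the kept cells, and in 1.19%, 1.12% and 0.433% after thinning. CHGB was detected in 28, 36 and 18 cells, in the controls always as a single UMI, a level at which free RNA cannot be told from expression. Of the 15 CHGA cells, 13 also held CPE and 6 also held CHGB. Conversely, 63 of the 72 cells with at least 2 CPE UMIs had no CHGA UMI.

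CHGA, CHGB and CPE were almost never detected in cells that held SST or GCG. All 3 genes were rare: of the 14472 kept cells, 15 held CHGA, 82 held CHGB and 284 held CPE. With genes this rare, few shared cells would be met by chance as well. The counts therefore do not show that these cells exclude each other. Of the 44 cells with a GCG UMI, 1 held a CHGB UMI, and no cell with an SST or GCG UMI held CHGA or CPE. Cells with at least 2 SST and GCG UMIs together numbered 34 (7, 13 and 14 by library). None of these 34 held a CHGA, CHGB or CPE UMI, where a count of 0 allows a share of up to 8.82% of cells with a UMI, and none of the 15 CHGA cells held SST, GCG or UCN3, which allows up to 20%. These limits concern cells with a UMI, and since CHGA and CHGB often gave 1 or 2 UMIs where detected, a cell without a UMI may still express them. The cells had median depths of 3607.5 and 2752 UMIs against 4332 in all kept cells. Their median doublet scores were 0.077 and 0.053, against 0.067 in all kept cells. Because these cells were chosen by the members, the following shares are descriptions without a test.

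Shares of the other granule genes and regulators differed between these cells. SCG5 (the 7B2 protein, a partner of proconvertase 2) was detected in 50% of the SST or GCG cells and 6.67% of the CHGA cells, against 0.692% of the 14300 other kept cells, which excluded the UCN3 cells and those with at least 2 CPE UMIs. VGF, a granin relative, was detected in 44.1% and 0%, against 1.89%. The proconvertase PCSK1 was detected in 20.6% and 0%, against 0.035%. These genes were thus commoner in the SST or GCG cells. SCG2 (secretogranin II) was found in 38.2% and 80.0%, SCG3 in 26.5% and 46.7%, and CADPS, a priming factor of granule release, in 20.6% and 33.3%. Regulators of the lineage were commonest in the CHGA cells: INSM1 was detected in 17.6% and 86.7%, and PAX4 in 11.8% and 46.7%. The kinds of cells were not matched by library. All 15 CHGA cells came from the controls, whereas 14 of the 34 SST or GCG cells came from the LPS library. Over all kept cells, INSM1 (4.67, 5.70 and 2.10 CPM) and PAX4 (2.94, 3.52 and 0.979 CPM) were lower in the LPS library. These shares therefore mix library with kind of cell. The regulator ISL1 was detected in 17.6% and 0%. PCSK1N, which encodes the proconvertase inhibitor proSAAS, was detected in 5.88% and 93.3%, against 10.5% of other cells. RBP4, the retinol carrier, was detected in all 34 SST or GCG cells and in 26.7% of the CHGA cells, and TFF3, a goblet cell peptide, in 94.1% and 46.7%.

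**Figure D3:**
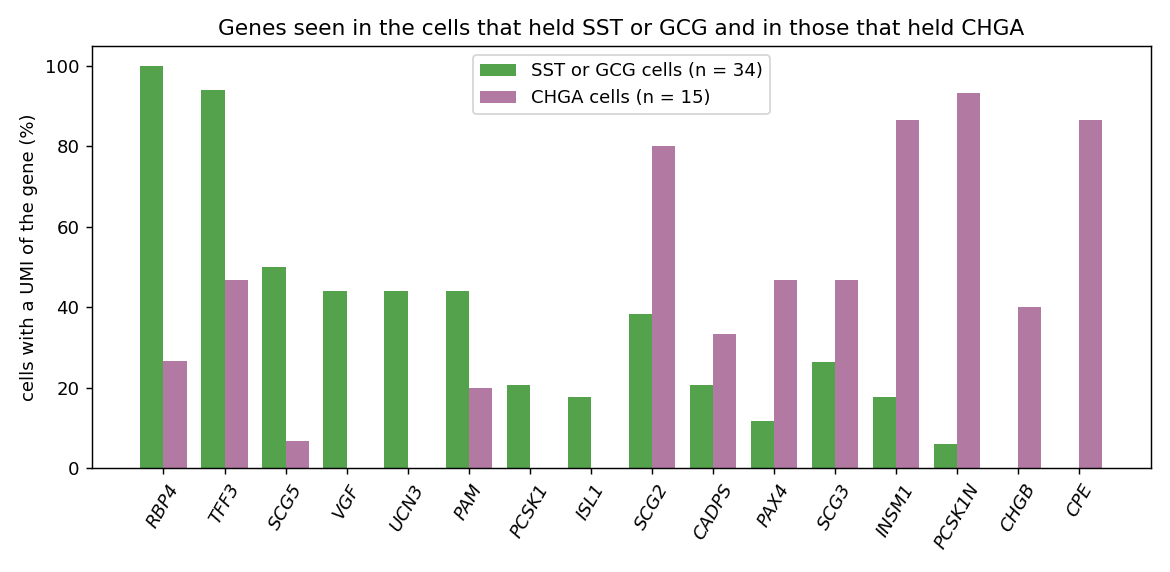
Share of cells with a UMI (percent) for granule and regulator genes in the 34 SST or GCG cells and the 15 CHGA cells. PCSK1N, INSM1 and CPE stand highest in the CHGA cells. RBP4 and TFF3 stand highest in the SST or GCG cells, followed by SCG5.

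Clustering of the cells with the members left out of the genes used gave 20 clusters, of which 2 small ones were EEC-like (enteroendocrine cell-like) by their markers. Cluster 17 (60 cells, led by ENPP2, SCG2 and KCTD12) held 71.6% of all SST UMIs, 81.1% of GCG and 36.6% of UCN3, and no CHGA, CHGB or CPE UMI. Cluster 11 (225 cells, with CLPS, INSM1 and PAX4 among its leading genes) held 83.9% of CHGA, 52.5% of CPE and 23.8% of CHGB, and no SST or GCG UMI. CHGB was less confined, with 41.7% of its UMIs in transit-amplifying-like cluster 1 (3138 cells), at 1.87 CPM against 27.0 CPM in cluster 11. Of the 34 SST or GCG cells, 24 lay in cluster 17, and 13 of the 15 CHGA cells lay in cluster 11. The LPS cell with 297 SST UMIs lay outside both, in unnamed cluster 6.

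Both EEC-like clusters held cells of all libraries. Cluster 17 had 18, 21 and 21 cells in control 1, control 2 and the LPS library, and within it SST was at 1101, 2652 and 11765 CPM in 5, 3 and 8 cells. Its top cells held 37, 131 and 507 SST UMIs, so these levels rest largely on single cells in control 2 and the LPS library. GCG was at 495, 901 and 952 CPM there, and UCN3 at 124, 66.7 and 408 CPM. Cluster 11 had 71, 109 and 45 cells, and within it CPE was at 409, 361 and 56.1 CPM, found in 56.3%, 45.9% and 15.6% of its cells. CHGA was at 79.6, 98.0 and 0 CPM there, and CHGB at 37.9, 28.5 and 6.23 CPM. The LPS cells of cluster 11 thus held less CPE than those of either control. Under log normalization without integration, which gave 10 clusters, CHGA, CHGB and CPE again led in an EEC-like cluster (200 cells), whereas SST, GCG and UCN3 led in a goblet-like one (216 cells).

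**Figure D4:**
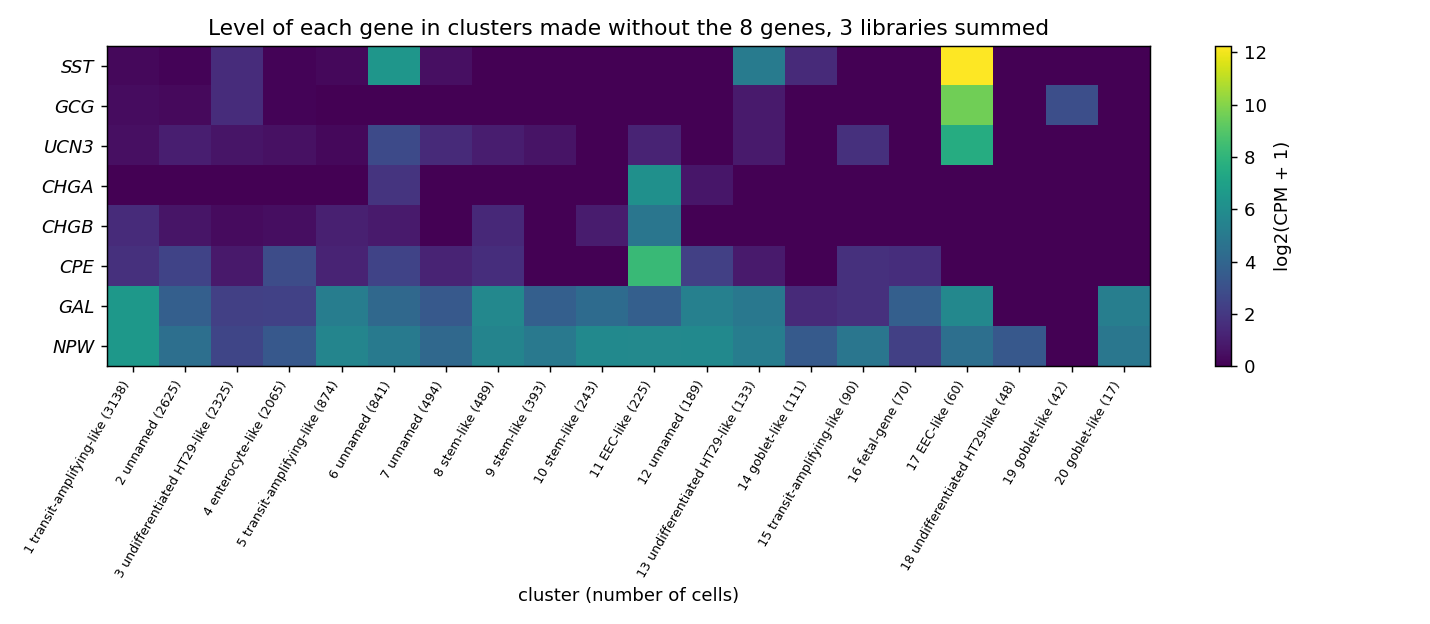
Level of each member in each of the 20 clusters, summed over the 3 libraries, with the colour on a log2(CPM + 1) scale. SST, GCG and UCN3 peak in cluster 17 (4863, 763 and 193 CPM), CHGA, CHGB and CPE in cluster 11 (70.2, 27.0 and 312 CPM), and GAL and NPW in transit-amplifying-like cluster 1 (92.9 and 90.6 CPM).

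Exposure to LPS was the treatment of the study, and 2 of the 8 members differed between the LPS library and the controls in the sums over all kept cells. SST was higher by 3.15 ± 0.29 on the log2 scale (SE; edgeR quasi-likelihood test, adjusted p = 1.05e-05), from 2.70 and 8.24 CPM to 49.8 CPM. CPE was lower, with a log2 difference of -1.57 ± 0.26 (adjusted p = 0.00938), from 7.07 and 7.21 CPM to 2.55 CPM. The controls and the LPS library did not overlap for either gene. Among the 16135 genes tested, 0.0682% were called higher and 0.0372% lower, against 1 of 8 members each way. The median difference was -0.21 over the members and 0.01 over all genes tested. A sum over all kept cells does not by itself separate the number of cells of a type from the RNA per cell. Cluster 11 held 71, 109 and 45 cells in control 1, control 2 and the LPS library, and CPE within it was also lower in the LPS library. Cluster 17 held 18, 21 and 21 cells, and SST within it was higher in the LPS library. The part of each in these differences was not tested. DESeq2 called neither member (adjusted p = 1.00 for SST and 0.288 for CPE). With the cell minimums of control 1 in all libraries, which remove the cell with 507 SST UMIs, SST was higher by 1.80 (adjusted p = 0.00959) and CPE was no longer called (adjusted p = 0.0692). Those minimums also remove LPS cells with 74, 71, 15 and 9 SST UMIs, so the smaller value does not rest on the top cell alone. Without control 1 the SST difference was 2.54 and without control 2 it was 4.09, both without a test.

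The SST difference came from few cells, but not from the top cell of each library alone. Without the top SST cell of each library it was 3.48 and called by edgeR. Leaving out the top 3 cells left 4 and 2 SST UMIs in the controls, while the next LPS cell alone held 71. The LPS library thus stayed higher, but the control counts are too low to give the size of a difference. CHGA had 22, 40 and 0 UMIs, with up to 7 and 15 in a cell of the controls. It was found in 0.151% and 0.160% of control cells, where 0 in the LPS library allows 0.0619%. With 0 taken as 3 UMIs, the LPS library lay 5.00-fold below control 1 and 11.2-fold below control 2 (8.08-fold against their mean). These folds treat UMIs as independent, so they are not lower bounds on the difference between the libraries. That difference was not called over all kept cells (adjusted p = 0.0578). UCN3 had an unadjusted p = 0.00903 for a difference of 1.20, which did not pass adjustment (adjusted p = 0.956). GCG (0.68), GAL (-0.26), NPW (-0.16) and CHGB (-0.36) were not called.

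The regulators of the enteroendocrine lineage moved with CPE and CHGA. Their summed level over 12 genes was 13.6 and 17.8 CPM in the controls and 6.80 CPM in the LPS library. INSM1 was at 4.67, 5.70 and 2.10 CPM, and PAX4 at 2.94, 3.52 and 0.979 CPM. Of the 7 regulators tested over all kept cells, edgeR called 0, as did DESeq2, with 5 at an unadjusted p under 0.05 in edgeR and a median difference of -1.37. The part of the regulators and of the number of EEC-like cells in the CPE difference was not tested.

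The same contrast within Caco-2-line cells called 3 members by edgeR and none by DESeq2. SST was higher by 4.24 ± 0.45 (adjusted p = 3.3e-06), from 0.039 and 2.05 CPM to 19.1 CPM. A single cell held 92.8% of the 320 SST UMIs in the LPS library, which was at 1.37 CPM without it, and a single cell held all 41 SST UMIs of control 2. CPE was lower (-1.56 ± 0.27, adjusted p = 0.00551), from 7.96 and 8.72 CPM to 2.98 CPM. CHGA was lower (adjusted p = 0.0281), at 0.858 and 2.00 CPM in the controls and 0 UMIs in the LPS library. Taken as 3 UMIs, that 0 lay 4.79-fold below control 1 and 11.2-fold below control 2, again with UMIs treated as independent. Of 15563 genes tested, 0.0386% were higher and 0.0835% lower. PAX4 (-2.66, adjusted p = 0.0281) and INSM1 (-1.87, adjusted p = 0.0127) were lower as well, 2 of the 6 regulators tested, while DESeq2 called 0 of the 6. With the line called from short panels (14 HT29 and 12 Caco-2 genes), or with the minimums of control 1, SST was the 1 member called. In HT29-line cells, edgeR called none of the 5 members tested, with 2 at an unadjusted p under 0.05 and none called by DESeq2, where 0.167% of 12002 genes were called. SST there was at 16.2, 39.2 and 57.6 CPM, a difference of 1.00 ± 0.26 (adjusted p = 0.0603). Without the top SST cell of each library the HT29-line difference was 2.95 and called (adjusted p = 3.17e-21), and with the minimums of control 1 it turned to -1.35 (adjusted p = 0.0194), so its size rested on single cells.

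The members also divided between the lines. Cells had been assigned to a line by 411 HT29 and 773 Caco-2 genes that bulk RNA-seq of each line alone had separated, none of them a member. In control 1, control 2 and the LPS library, GCG was at 5.42, 13.7 and 16.9 CPM in HT29-line cells and at 0, 0.451 and 0.716 CPM in Caco-2-line cells. SST was at 16.2, 39.2 and 57.6 CPM in HT29-line and 0.039, 2.05 and 19.1 CPM in Caco-2-line cells. Both were higher in HT29-line cells of every library. The differences were 4.98 ± 0.35 for GCG (edgeR with library as a block, adjusted p = 3.18e-12) and 2.96 ± 0.37 for SST (adjusted p = 1.39e-07). Called higher were 2 of 7 members tested, against 33.9% of 12881 genes. SST was higher by 4.85 without the LPS library and by 2.37 without control 2.

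GAL, NPW, CPE and CHGB were lower in HT29-line cells, 4 of the 7 tested against 37.7% of all genes. GAL was at 1.48, 1.22 and 3.32 CPM in HT29-line and 34.3, 50.01 and 36.8 CPM in Caco-2-line cells (-4.45 ± 0.22, adjusted p = 2.9e-15). NPW was at 2.22, 3.18 and 3.32 CPM against 40.9, 53.6 and 44.8 CPM (-4.07 ± 0.17, adjusted p = 1.82e-16). CPE was at 1.97, 0.490 and 0.302 CPM against 7.96, 8.72 and 2.98 CPM (-2.88 ± 0.36, adjusted p = 1.14e-07). The lines did not overlap for these 3 genes. CHGB was at 0.246, 0.490 and 0 CPM against 1.05, 1.65 and 1.19 CPM (-2.34 ± 0.70, adjusted p = 0.00427). Every CHGA UMI lay in a Caco-2-line cell, and CHGA was not tested. UCN3 did not pass the test (0.88 ± 0.42, adjusted p = 0.0608). With calls this common over all genes, the counts alone set the members little apart.

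The line of the SST or GCG cells depended on the genes that called it. The 34 cells were 20 HT29-line, 7 Caco-2-line and 7 between by the long lists, but 8, 20 and 6 by the short panels. RBP4, which is on both Caco-2 lists, was at 4055 CPM in these cells and at 363 CPM in the other kept cells. Without RBP4 the long lists gave 22, 7 and 5 cells and the panels 26, 5 and 3. With the panels, the SST difference between the lines was -2.99 and turned direction. Without RBP4 it was 3.88 by the long lists and 3.89 by the panels. The 15 CHGA cells were all Caco-2-line by the long lists, and 1 HT29-line, 6 Caco-2-line and 8 between by the panels. CPE differed by 0.34 with the panels and 0.24 without RBP4, so its direction between the lines also turned. GAL and NPW stayed lower in HT29-line cells under each of these line calls.

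Whether the members followed the enteroendocrine regulators was tested in cells with at least 2 UMIs of the 12 regulators (71, 87 and 31 cells by library), none of which is a member. Of 7 members tested, 5 were higher in these cells, against 6.77% of 13776 genes. CPE was at 302, 338 and 38.5 CPM in them and at 3.71, 2.99 and 2.32 CPM in the other cells (5.90 ± 0.22, edgeR with library as a block, adjusted p = 1.24e-149). GCG was at 77.1, 87.9 and 7.71 CPM in the regulator cells and at 0.337, 1.91 and 3.45 CPM elsewhere, and differed by 5.11 ± 0.43 (adjusted p = 1.41e-29). CPE and GCG were higher in the regulator cells of all 3 libraries, although the LPS values rest on 5 CPE UMIs and 1 GCG UMI.

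The other calls were less even over the libraries. CHGB was at 29.7, 29.3 and 0 CPM in the regulator cells (4.35 ± 0.64, adjusted p = 5.65e-10). UCN3 was at 20.8, 0 and 38.5 CPM (3.47 ± 0.74, adjusted p = 4.63e-05), and without control 1 was not called (adjusted p = 0.175). SST was at 119, 0 and 3909 CPM (5.45 ± 0.21), and without the top SST cell of each library the difference was -0.93 (adjusted p = 0.532). The SST call thus rested on those cells, and control 2 had no SST UMI in its regulator cells. CHGA was at 65.2, 127 and 0 CPM in the regulator cells and at 0, 0.0415 and 0 CPM elsewhere, and was not tested. GAL (-0.53) and NPW (-0.22) were not called, but GAL was lower without the LPS library (-1.01, adjusted p = 0.0445) and NPW without control 1 (-1.66, adjusted p = 0.00797). Within Caco-2-line cells CPE (5.88) and CHGB (4.26) were higher and GAL was lower (-1.13, adjusted p = 0.0131), and within HT29-line cells GCG (5.01) and SST (2.87) were higher. That SST value rests largely on 1 cell of control 1 with 37 SST UMIs.

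The other granins and processing enzymes were tested in the same cells, and 8 of 13 were higher. Vesicle priming factor CADPS (7.57), SCG2 (6.67) and SCG3 (6.66) differed most, followed by SCG5 (4.05), PCSK1N (3.57), PTPRN2 (2.79), SYP (2.21) and RAB3B (1.94). Of 5 other gut hormones and peptides tested, none was higher, and MLN (motilin, -2.10) and ADM (adrenomedullin, -0.64) were lower. Of the members' receptors, SSTR2, a somatostatin receptor, was higher (3.58, adjusted p = 2.81e-18), 1 of 4 tested.

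GAL and NPW were found in more Caco-2-line than HT29-line cells, but not evenly among them. Over the 3 libraries, GAL was at 92.9 CPM in transit-amplifying-like cluster 1 and at 4.22 CPM in enterocyte-like cluster 4, near its 3.96 CPM in undifferentiated HT29-like cluster 3. NPW was at 90.6, 9.39 and 4.93 CPM in these clusters. Under log normalization without integration, GAL was at 65.9 CPM in a transit-amplifying-like cluster and at 63.1 CPM in a stem-like one. NPW was at 67.8 and 72.9 CPM in those, so it led in the stem-like cluster. In control 1, control 2 and the LPS library, a GAL UMI was found in 13.1%, 15.5% and 11.4% of Caco-2-line cells and in 0.616%, 0.415% and 1.24% of HT29-line cells. NPW was found in 15.3%, 16.3% and 13.98% against 1.23%, 1.35% and 1.36%. Median depths were 5468, 4202.5 and 3563 UMIs in Caco-2-line and 5396, 3758 and 3588 UMIs in HT29-line cells. After thinning, GAL was found in 3.67%, 4.87% and 4.35% of Caco-2-line cells against 0%, 0% and 0.495%, and NPW in 4.53%, 5.62% and 5.41% against 0.154%, 0.312% and 0.619%. The 2 genes shared 630 cells, which is 38.7% of the 1626 GAL cells and 33.9% of the 1859 NPW cells.

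Within Caco-2-line cells, GAL and NPW were higher in those rich in cycling genes. Cells were divided at the median level of 41 S phase and 52 G2M phase genes, separately in each library. GAL was at 52.0, 71.98 and 50.1 CPM in the cells rich in cycling genes and at 9.51, 19.9 and 19.5 CPM in those poor in them (1.74 ± 0.11, edgeR with library as a block, adjusted p = 3.14e-12). NPW was at 56.9, 70.6 and 56.8 CPM against 18.7, 30.2 and 29.1 CPM (1.12 ± 0.08, adjusted p = 4.54e-11). Neither gene's values overlapped between rich and poor cells. These were 2 of the 6 members tested, against 25.8% of 13501 genes called higher.

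CPE (-0.84 ± 0.14, adjusted p = 3.14e-05) and UCN3 (-1.17 ± 0.35, adjusted p = 0.00797) were lower in the cycling-rich cells, 2 of 6 members against 27.0% of genes. Without the library block neither was called (adjusted p = 0.134 for each), and UCN3 was not called without control 1 (adjusted p = 0.0632). CHGA and CHGB were not called.

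The enterocyte genes gave the reverse picture for GAL and NPW. In cells rich in 12 enterocyte genes, GAL was at 14.8, 25.5 and 18.0 CPM, and in cells poor in them at 52.5, 73.6 and 55.8 CPM (-1.45 ± 0.07, adjusted p = 8.56e-13). NPW was at 21.9, 39.2 and 29.9 CPM against 58.7, 67.4 and 59.7 CPM (-0.85 ± 0.08, adjusted p = 3.07e-08). CPE was lower in enterocyte-rich cells of the controls (4.19 and 3.78 against 11.5 and 13.5 CPM) but not in the LPS library (3.81 against 2.15 CPM), with a pooled difference of -1.02 ± 0.25 (adjusted p = 0.0017). CHGB was also lower (-1.30 ± 0.34, adjusted p = 0.00352). These were 4 of the 5 members tested, against 24.0% of 13563 genes called lower. UCN3 was not called (-0.59, adjusted p = 0.185). With the line called from the short panels, the CPE difference was -0.01 and was not called, and without the library block CPE was not called either.

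**Figure D5:**
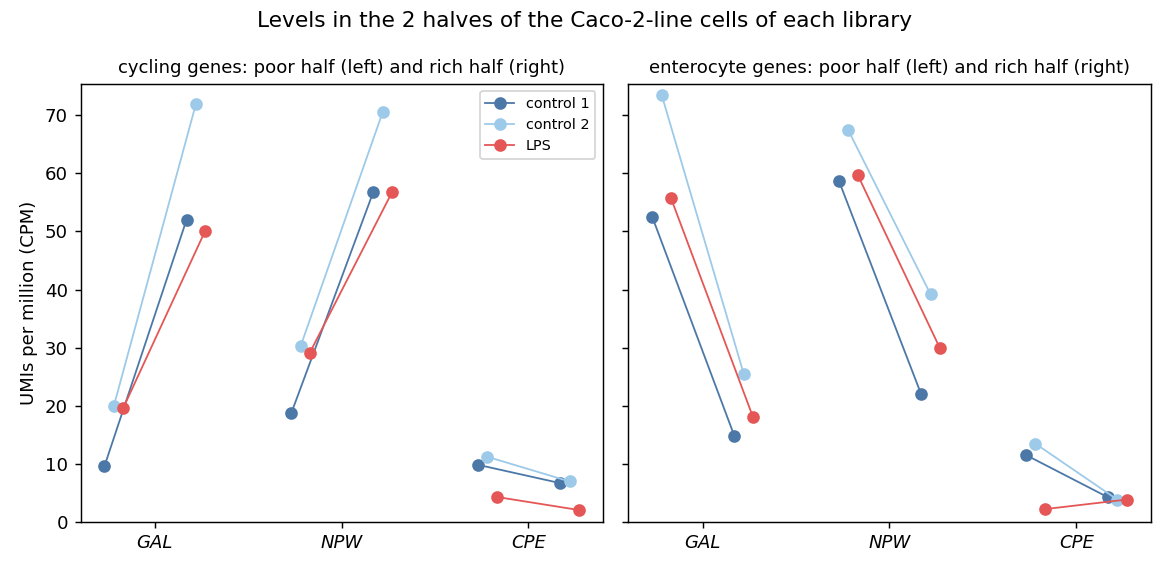
Level (CPM) of GAL, NPW and CPE in Caco-2-line cells rich or poor in cycling genes and rich or poor in enterocyte genes, with 1 point for each library. GAL and NPW lie higher in the cycling-rich cells (50.1 to 71.98 CPM for GAL) and lower in the enterocyte-rich cells (14.8 to 25.5 CPM).

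The genes most like each member were sought among 14515 genes by Pearson's r of log2(CPM + 1) over 49 sums of cells per cluster and library. Each sum held at least 20 cells. These sums share libraries and clusters, so r is a description. Cluster 17, with 71.6% of SST and 81.1% of GCG UMIs, entered only with control 2 and the LPS library, since control 1 had 18 cells there. SST was most like GCG (r = 0.81), UCN3 (0.81) and NOV (0.80), a secreted matricellular protein. GCG was most like ETV1 (0.88), a transcription factor, followed by NOV and KLRC2 (0.85 each), and UCN3 was most like SST and GCG (0.78). CHGA was most like MAP1B (0.80), a microtubule protein of neurons, and CHGB (0.77), and MAP1B was also among the 2 nearest genes of CPE (0.83). GAL was most like RFC4 (0.76), a clamp loader of DNA replication. NPW was most like RAMP2 (0.89), a receptor activity-modifying protein.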

How the data were processed

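Single-cell RNA-seq was analysed in 3 libraries of 10x 3′ chemistry: 2 controls and 1 LPS culture. Per the labels, the authors processed reads with Cell Ranger against GRCh38 (the file headers and the study's methods name different versions). The deposited matrices hold raw counts of UMIs per gene and barcode, unnormalized, and no column of another sample was present. The 8 members and all gene lists were chosen with earlier results of these data known. The sources used here do not say that the 2 controls were grown from separate cell stocks, so the spread between these libraries may be technical. The edgeR p-values and SEs rest on that spread after it is moderated over all genes tested. For a gene whose libraries differ widely, such as SST, they can understate the gene's own spread.

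Cells were kept at the minimums the study states for each control (2250 UMIs and 770 genes, and 1500 UMIs and 700 genes), with at most 20% mitochondrial UMIs. No minimums are stated for the LPS library, which was given those of control 2. The Scrublet caller marked 0, 0 and 1 cells, so the top 6% of each library by Scrublet score were left out instead. A cell's line came from 2-component mixtures of a score from the study's bulk line genes (posterior of at least 0.9). Short panels gave the same line as the long lists for 98.7% to 99.4% of the cells that both placed in a line (4542, 4819 and 4672 cells).

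UMIs were summed per library and class of cells, and sums were tested with edgeR 4.0.16 (quasi-likelihood F test, TMM, filterByExpr, two-sided, Benjamini-Hochberg over all genes tested, threshold 0.05). Each SE given with an edgeR difference is the absolute log2 difference divided by the square root of its F statistic. Tests of LPS had 1 residual degree of freedom, and tests between classes had the library as a block, since both classes come from the same cultures. DESeq2 1.42.0 and other normalizations, filters, cell minimums, doublet treatments, line calls and left-out libraries served as alternatives. On simulated sums with 200 genes changed by 2 on the log2 scale, the LPS test over all kept cells recovered 97.5% of them, with 3.94% of its calls false, over 16060 genes. The LPS test in Caco-2-line cells recovered 97.5% with 8.45% false, over 15451 genes, and the regulator-cell test recovered 54% with 5.26% false, over 13620 genes. The simulation gave every gene the same dispersion and changed only genes above a minimum count. CHGA (62 UMIs in all) and CHGB (84 UMIs) lay below that minimum. These rates therefore do not carry over to such members, or to SST, whose UMIs lay mostly in few cells.

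Clusters (Seurat 5.3.0, SCTransform, anchors, Leiden resolution 0.5, members left out) were named only where at least 3 listed markers were raised. Genes named are the 8 members, genes of the lists past the threshold or with at least 50 UMIs, cluster-leading genes, and the genes nearest to each member, except 1 gene that is not reported here. Intervals of shares are exact binomial (95%). R was version 4.3.3 and scanpy 1.11.5.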

Additional observations from a re-analysis of the deposited data

Results flagged for a closer look

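With the line called from the long lists, the SST difference between the LPS library and the controls was called unlike in the lines. The test was of the difference itself, in a fit of both lines with line-by-treatment terms. The call rested on single cells and on the line call. Of the 362 SST UMIs in Caco-2-line cells, 297 lay in a single LPS cell and 41 in a single cell of control 2. In log2 units, the difference in HT29-line cells minus that in Caco-2-line cells was -3.29 ± 0.34 (edgeR, adjusted p = 9.65e-18). SST was at 16.2, 39.2 and 57.6 CPM in HT29-line cells and at 0.039, 2.05 and 19.1 CPM in Caco-2-line cells of control 1, control 2 and the LPS library. The value was -1.41 (adjusted p = 0.00957) with RBP4 left out of the long lists, -1.45 (adjusted p = 0.00921) with it left out of the panels, and -1.34 (adjusted p = 0.207) without the top SST cell of each library. With the short panels it turned to 1.83 (adjusted p = 1.00). No other member was called in this fit.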

How the results depend on the processing

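Of the alternatives' log2 differences for single members, 484 kept their direction and side of the threshold, 29 fell below it, 14 passed it and 15 reversed. A further 18, from fits with a control left out and no test, kept their direction but moved by more than 1 SE. The cause of each change was not tested. Calls with RBP4 left out, without the top SST cells or within one line were chosen after seeing the data. Members called in the LPS comparison of all kept cells numbered 0 with DESeq2 and 1 with the minimums of control 1. In Caco-2-line cells they numbered 0 with DESeq2, and 1 with the short panels, with those panels without RBP4 and with the minimums of control 1. In HT29-line cells they numbered 2 with the short panels (with or without RBP4), and 1 with the long lists without RBP4, the minimums of control 1, no doublets removed, or the top cell or top 3 SST cells left out. Between the lines 3 were called with the short panels. In regulator cells 3 were called within Caco-2-line cells and 2 within HT29-line cells. DESeq2 called 2 members in the enterocyte comparison. With log normalization, 3 members led in an EEC-like cluster instead of 6.

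Reversed values under the short panels were CHGB (0.022) in the LPS comparison of Caco-2-line cells, GCG (-0.10) and NPW (-0.14) in that of HT29-line cells, SST (-2.99), UCN3 (-0.0076) and CPE (0.34, or 0.24 without RBP4) between the lines, and SST (1.83) in the test between the lines' LPS differences. NPW in HT29-line cells was -0.21 with no doublets removed, and SST there was -1.35 with the minimums of control 1. In regulator cells, SST was -0.93 without the top SST cells. Leaving out a library gave ranges across 0 for CHGB (-0.52 to 0.068) and NPW (-0.31 to 0.019) in the LPS comparison of Caco-2-line cells, where control 2 left out turned both, and for NPW in regulator cells (-1.66 to 0.29), where control 2 or the LPS library left out turned it. With a library left out, 6 to 7 members were called between the lines, 5 to 7 in regulator cells, 4 in the cycling comparison and 4 to 5 in the enterocyte comparison. Leaving out the LPS library allows no LPS comparison, and leaving out a control leaves no test.

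The library served as the block that pairs the classes of cells. Without this block, 2 members were called in the cycling comparison in place of 4, CPE and UCN3 being lost. No paired analysis of LPS was possible because its group holds 1 library.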

Other observations

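Among 23 other gut hormones and peptides, 3 were abundant. MLN, motilin, was at 96.8, 80.9 and 82.9 CPM in control 1, control 2 and the LPS library, ADM at 56.1, 69.2 and 61.4 CPM, and NMB, neuromedin B, at 21.8, 22.2 and 19.1 CPM. MLN was lower in HT29-line cells (-3.90, edgeR, adjusted p = 2.54e-18) and NMB higher (1.80, adjusted p = 2.53e-13). Of the colonic L-cell peptides other than those of GCG, PYY and INSL5 were near or at 0, with 10 PYY UMIs over the 3 libraries and none of INSL5. CCK (58 UMIs), GIP (48 UMIs) and GHRL (58 UMIs) were scarce. Of 11 tested, edgeR called 0 between LPS and controls, with 2 at an unadjusted p under 0.05, and DESeq2 called 0.

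Of 15 receptors for the members' peptides, 7 were at 0 UMIs, including GLP1R, GLP2R and both neuropeptide W receptors (NPBWR1 and NPBWR2). SSTR1 was at 5.47, 5.12 and 5.73 CPM, SSTR2 at 4.04, 4.71 and 4.70 CPM, and the glucagon receptor GCGR at 3.90, 4.71 and 4.16 CPM. GCGR was higher in HT29-line cells (1.47, adjusted p = 7.27e-06), and SSTR1 (-2.02, adjusted p = 1.67e-06), SSTR2 (-0.84, adjusted p = 0.00784) and SSTR3 (-3.55, adjusted p = 7.7e-05) were lower. None of the 4 tested was called between LPS and controls by edgeR or DESeq2, nor had any an unadjusted p under 0.05.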
